A study of Rattus norvegicus with 4 samples.

Results

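Interferon signalling and the genes it induces were followed as a list of 36 genes in NR8383 cells, a line of rat alveolar macrophages that came from a lung lavage. The genes were chosen by symbol, and a probe was assigned to a gene when its RefSeq accession belonged to that symbol. Of the 36 genes, 34 had such a probe, among 16581 named genes on the array. The type I receptor subunit Ifnar2 and the apoptosis-linked gene Xaf1 had none. The 4 samples form 1 group: cells after 20 passages, seeded for 48 h in medium with 15% serum, that received the Fe2O3 particle NRCWE018 at 2 µg/mL for 4 h. Each culture was measured on 1 single-colour array, and by the design the 4 are biological replicates. The untreated cultures of the design were not analysed here, so no value below is an effect of the particles.

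Interferons are secreted proteins, and cells release those of type I after sensing foreign or misplaced nucleic acid. Type I interferons such as IFN-beta bind the receptor made of IFNAR1 and IFNAR2, and interferon gamma binds IFNGR1 and IFNGR2. Receptor-bound JAK kinases then phosphorylate STAT proteins; a complex that holds STAT2 and IRF9 binds the interferon-stimulated response element (ISRE), and STAT dimers bind the gamma-activated sequence (GAS). The genes switched on in this way restrict viral replication, and macrophages are a main target of these cytokines.

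Levels are log2 of the processed signal over its array's 75th percentile, given for replicates 1 to 4 in that order, with mean ± SD over n = 4 arrays. Probes differ in how they bind, so levels were compared only within a probe, and groups of genes are described by how many were well above background by the scanner software's flag. The 75th percentile lay between 756.5 on replicate 4 and 1082 on replicate 3, and replicate 4 also had the largest share of spots marked as outliers, 1.62% against 1.13% to 1.21%. Replicate 4 had the smallest share of probes above background, 37.8% against 40.2% to 41.2%. Saturated spots numbered 0, and the small number of arrays limits how precisely any spread is known. Of 10 macrophage markers, 9 were above background on all 4 arrays, and Marco, a scavenger receptor of alveolar macrophages, was on none. Of 5 lung epithelium and 5 fibroblast and endothelium markers, 0 were on any array; among 5 measured T and B cell markers Cd4 was on all 4, and among 3 measured plasmacytoid dendritic cell markers Il3ra was.

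Every measured gene of the signalling chain was detected, and most induced genes were too. Of the 34 measured members, 29 (85.3%) were above background on all 4 arrays, beside 50.5% of all named genes. All 11 measured receptors and signalling genes were, as were 18 of the 22 measured induced genes (81.8%). The 5 exceptions were the ligand Ifnb1, the RNA sensor Ifih1 and the antiviral gene Ifit1, which were above background on no array, Ifit2 on 2 and Zbp1 on 3. No test was made of the difference between classes. If the factors Irf1, Irf7, Irf9 and Stat2, themselves interferon-induced, are counted with the induced genes, 7 of 7 signalling genes and 22 of 26 induced genes were above background.

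**Figure D1:**
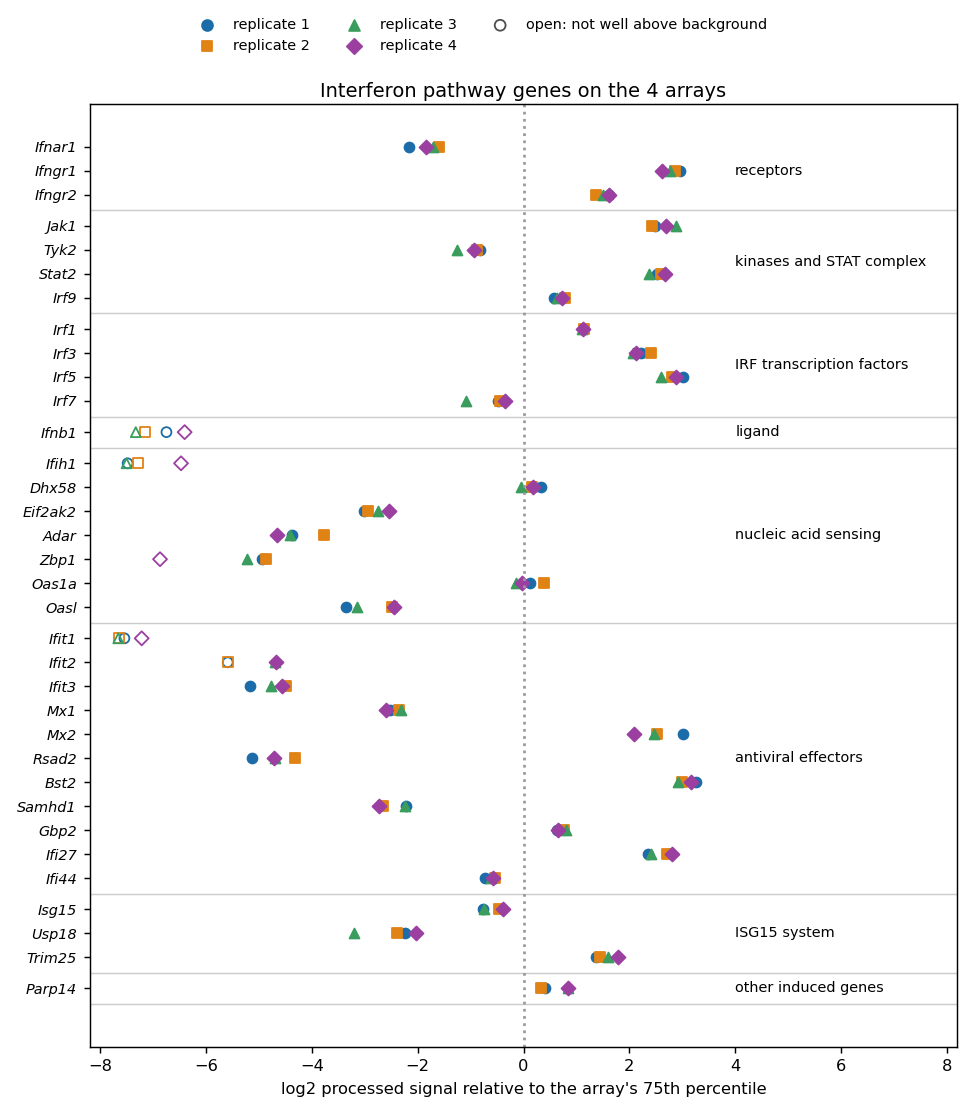
Log2 of processed signal over its array's 75th percentile (x axis) of the 34 measured genes (rows, grouped by role) on the 4 arrays; each marker is 1 array, filled where the probe was well above background and open where it was not. All 11 receptor and signalling genes are filled on every array; Ifnb1, Ifih1 and Ifit1 are open on all 4, and positions of different genes along the axis cannot be compared.

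The response element was found in most promoter windows of the induced genes and in 1 of the signalling genes' windows. Windows from 250 bases before to 50 bases after the annotated start were taken from RefSeq (GRCr8) and were found for 26 of the 36 genes. The ISRE was searched as GAAA, any 2 bases and GAAA again, and the GAS as TTCNNNGAA with N any base, each on both strands; the GAS pattern is its own reverse complement and was counted once. An ISRE match was found in 11 of 15 windows of induced genes and in 1 of 10 windows of receptors and signalling genes, that of Irf7, beside 3.92% of all 33469 windows of the same length. A GAS match was found in 4 of the 15 and 3 of the 10 windows, beside 8.87% of all. These matches are descriptions of sequence and show no binding, and no match says only that these letters are not in this window. Below, the 150 bases before the start are printed 5′ to 3′ along the gene's strand for genes the results turn on, in lower case with matches to either pattern in capitals.

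Oas1a (chr12:41330316-41330465, plus strand), Bst2 (chr16:18254968-18255117, minus strand) and Parp14 (chr11:78407984-78408133, plus strand) were above background on all 4 arrays. In Oas1a the capitals join overlapping ISRE matches that begin 41 and 35 bases before the start. In Bst2 they join a GAS match and overlapping ISRE matches, which begin 137, 131 and 125 bases before it. In Parp14 a GAS match, 87 bases before the start, lies beside an ISRE match that begins 76 bases before it.
Oas1a: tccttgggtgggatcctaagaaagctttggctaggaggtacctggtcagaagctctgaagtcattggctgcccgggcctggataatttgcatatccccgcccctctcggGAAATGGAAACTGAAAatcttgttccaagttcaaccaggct
Bst2: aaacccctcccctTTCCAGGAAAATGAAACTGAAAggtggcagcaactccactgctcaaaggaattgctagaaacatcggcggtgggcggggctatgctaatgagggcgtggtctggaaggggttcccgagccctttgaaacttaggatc
Parp14: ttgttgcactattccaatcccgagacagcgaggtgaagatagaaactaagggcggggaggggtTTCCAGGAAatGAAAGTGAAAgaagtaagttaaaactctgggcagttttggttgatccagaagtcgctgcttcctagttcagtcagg

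Ifit3 (chr1:241527176-241527325, plus strand), Rsad2 (chr6:48788121-48788270, minus strand), Gbp2 (chr2:234005577-234005726, plus strand), Eif2ak2 (chr6:21941004-21941153, plus strand) and Irf7 (chr1:205800024-205800173, minus strand) were also above background on all 4 arrays, and each window held 1 ISRE match. In Ifit3, Rsad2, Gbp2 and Irf7 the match lies on the opposite strand, so the capitals show its reverse complement.
Ifit3: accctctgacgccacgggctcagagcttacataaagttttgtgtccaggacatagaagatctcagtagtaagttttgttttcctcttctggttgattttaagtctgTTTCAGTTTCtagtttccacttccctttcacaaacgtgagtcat
Rsad2: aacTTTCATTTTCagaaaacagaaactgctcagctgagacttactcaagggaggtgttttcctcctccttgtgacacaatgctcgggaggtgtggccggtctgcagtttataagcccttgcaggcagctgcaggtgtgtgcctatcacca
Gbp2: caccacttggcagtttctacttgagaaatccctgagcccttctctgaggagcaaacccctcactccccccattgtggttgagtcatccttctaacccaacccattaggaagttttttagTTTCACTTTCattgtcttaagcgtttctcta
Eif2ak2: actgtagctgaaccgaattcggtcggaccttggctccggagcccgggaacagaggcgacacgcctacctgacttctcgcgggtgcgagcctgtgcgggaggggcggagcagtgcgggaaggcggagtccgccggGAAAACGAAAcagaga
Irf7: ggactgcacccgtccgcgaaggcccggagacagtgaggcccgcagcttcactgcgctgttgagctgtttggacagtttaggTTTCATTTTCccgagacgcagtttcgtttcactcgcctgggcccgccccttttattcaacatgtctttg

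Ifih1 (chr3:67683969-67684118, minus strand) is shown because it was above background on no array although its window held an ISRE match, which begins 59 bases before the start. Irf1 (chr10:38417785-38417934, plus strand) and Irf9 (chr15:33065686-33065835, plus strand) are shown as 2 of the 3 signalling genes with a GAS match, and neither window held an ISRE match. Their GAS matches begin 142 and 99 bases before the start.
Ifih1: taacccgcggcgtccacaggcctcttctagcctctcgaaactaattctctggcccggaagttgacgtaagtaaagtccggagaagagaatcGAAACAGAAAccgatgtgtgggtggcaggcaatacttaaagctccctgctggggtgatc
Irf1: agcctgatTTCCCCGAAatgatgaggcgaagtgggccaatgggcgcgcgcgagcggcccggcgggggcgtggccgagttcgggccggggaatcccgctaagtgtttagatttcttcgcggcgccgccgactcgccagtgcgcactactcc
Irf9: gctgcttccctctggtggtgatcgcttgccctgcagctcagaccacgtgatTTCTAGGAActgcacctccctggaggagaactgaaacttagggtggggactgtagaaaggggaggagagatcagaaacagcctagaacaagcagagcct

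Of the 22 genes above background on all 4 arrays that had a window, 10 held an ISRE match. Of the 2 measured genes with a window that were not above background on all 4, Ifih1 held one and Ifnb1 did not, which is too few for a comparison. The induced genes Oasl, Mx1, Samhd1 and Trim25 were above background on all 4 arrays with no ISRE match in their windows. A shorter pattern, GAAANNGAA, was found in the same number of members' windows, 12, beside 9.71% of all windows.

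**Figure D2:**
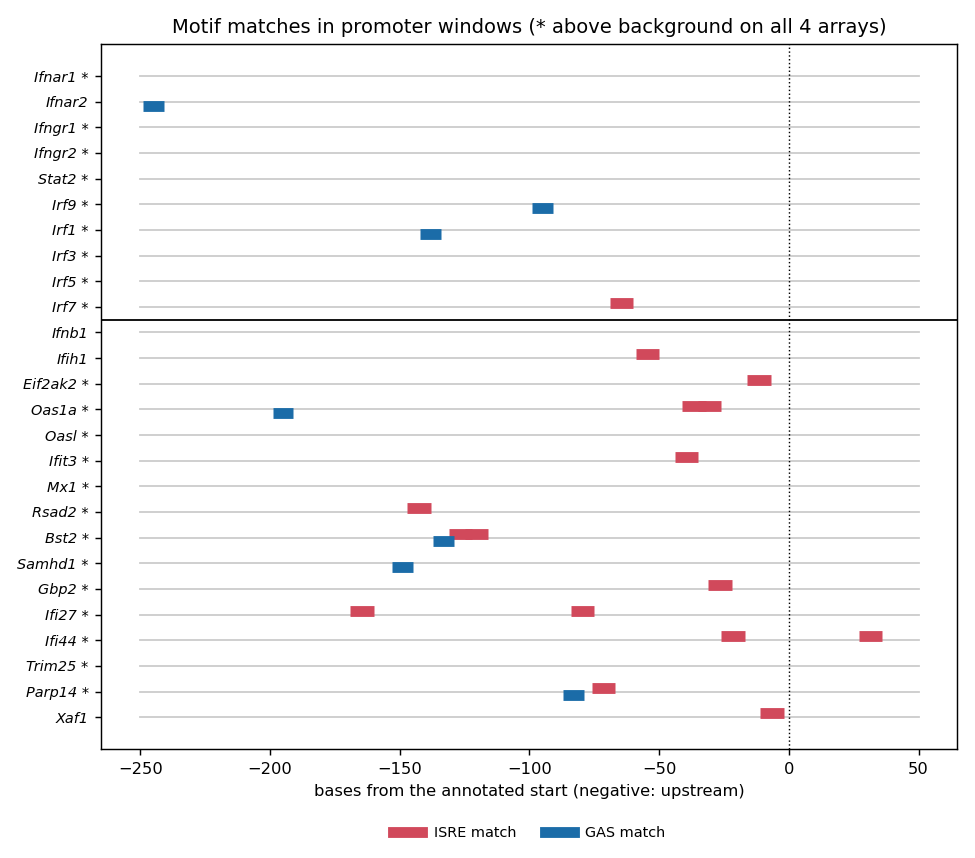
Positions of ISRE matches (red) and GAS matches (blue) in the promoter windows of 26 genes, in bases from the annotated start; the black line separates receptors and signalling genes (10 rows, top) from the ligand Ifnb1 and the 15 induced genes, and an asterisk marks genes above background on all 4 arrays. Red bars appear in 11 of the 15 induced genes and, above the line, in Irf7 alone.

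Receptor genes for both types of interferon were detected on every array. Ifnar1, a subunit of the type I receptor, was at -2.16, -1.59, -1.71 and -1.84 (-1.83 ± 0.25). Its highest and lowest arrays thus differed 1.49-fold, with replicate 1 lowest. Ifngr1, the ligand-binding chain of the interferon gamma receptor, was at 2.95, 2.86, 2.77 and 2.61 (2.80 ± 0.15), and its partner Ifngr2 at 1.62, 1.37, 1.51 and 1.62 (1.53 ± 0.12). No receptor had an unadjusted p under 0.05 in the test of excess spread described below.

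The 2 kinases and both measured members of the complex, Stat2 and Irf9, were detected on every array, and the kinases had the larger SDs. Jak1, which serves both receptor types, was at 2.48, 2.42, 2.88 and 2.68 (2.62 ± 0.21), highest in replicate 3. Tyk2, the kinase of the type I receptor, was at -0.82, -0.87, -1.25 and -0.94 (-0.97 ± 0.19), lowest in replicate 3. Replicate 3 was thus at the top of the range for one kinase and at the bottom for the other. Stat2 was at 2.52, 2.61, 2.36 and 2.67 (2.54 ± 0.13), and Irf9, its DNA-binding partner, at 0.58, 0.78, 0.63 and 0.72 (0.68 ± 0.09). The highest and lowest arrays of Irf9 differed 1.15-fold.

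The IRF transcription factors included the steadiest member and one of the more variable ones. Irf1, an early factor that interferon gamma induces, was at 1.12, 1.14, 1.10 and 1.13 (1.12 ± 0.018), a 1.03-fold span and the smallest SD of the 29 members. Irf3, which relays nucleic acid sensing to the Ifnb1 gene, was at 2.22, 2.40, 2.07 and 2.13 (2.20 ± 0.14), and its 10 repeat spots had an SD between 0.05 and 0.08 within an array. Irf5, a factor of inflammatory macrophages, was at 3.01, 2.81, 2.60 and 2.88 (2.82 ± 0.17). Irf7, which amplifies the type I response, was at -0.48, -0.45, -1.09 and -0.35 (-0.59 ± 0.34), so that replicate 3 stood below the other arrays and the span was 1.67-fold. All 4 IRF genes were lowest in replicate 3, as were 34.4% of all genes above background, but with outlier spots kept, quantile normalization, cyclic loess or the percentile over probes above background this held for 2 of the 4. Irf7 was lowest in replicate 3 under each of these scalings, with a span of 1.55-fold to 1.67-fold.

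The ligand gene and part of the nucleic acid sensors were not well above background on every array. Ifnb1, which encodes IFN-beta, was at -6.75, -7.15, -7.33 and -6.41, and Ifih1, which encodes the RNA sensor MDA5, at -7.48, -7.28, -7.50 and -6.47. The lowest level of any probe above background was -5.55, -5.64, -5.65 and -5.04 on these arrays, and both probes lay below it. The negative control spots had medians between -7.77 and -7.19. A looser flag of the software, for positive and significant signal, was carried on all 4 arrays by 33 members. These were 11 signalling genes, 21 induced genes and Ifnb1. The share of all named genes carrying this looser flag was not computed, so the count of 33 has no background beside it. A value below the stricter limit sets only an upper bound. In bulk RNA, fewer cells of a type and less RNA per cell cannot be told apart. Zbp1, a sensor of Z-form nucleic acid, was above background at -4.94, -4.86 and -5.22 on replicates 1 to 3 and not on replicate 4, at -6.87.

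The other sensors were above background on all 4 arrays. Dhx58, which encodes the RNA helicase LGP2, was at 0.33, 0.16, -0.05 and 0.17 (0.15 ± 0.15). Eif2ak2, the RNA-dependent kinase PKR, was at -3.01, -2.94, -2.75 and -2.55 (-2.81 ± 0.21), highest in replicate 4. A second Eif2ak2 probe was above background on 3 arrays, at -4.32, -4.18, -4.23 and -4.72, lowest in replicate 4. The call on all 4 arrays thus rests on 1 of its 2 probes. Adar, an RNA editing enzyme, was at -4.37, -3.76, -4.41 and -4.65 (-4.30 ± 0.38). The Adar spot was 2.37 to 3.23 times its local background on the 4 arrays, close to the limit of the calls. Oas1a, an oligoadenylate synthetase that activates RNase L, was at 0.12, 0.38, -0.15 and -0.02 (0.08 ± 0.23). Its relative Oasl was at -3.35, -2.48, -3.15 and -2.44 (-2.85 ± 0.46), higher on replicates 2 and 4 than on 1 and 3, with a 1.87-fold span and an unadjusted p of 0.0548 in limma's test of excess spread.

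The antiviral effectors ranged from probes far above background to probes at its edge. Ifit1, which binds foreign RNA ends, was above background on no array, at -7.54, -7.65, -7.66 and -7.22. Its relative Ifit2 was above background on replicates 3 and 4, at -4.70 and -4.68, and not on replicates 1 and 2, both at -5.59. Ifit3 was above background on all 4, at -5.17, -4.50, -4.77 and -4.56 (-4.75 ± 0.30), with a spot 2.15 to 2.64 times its local background. Rsad2, which encodes viperin, was similarly close to the limit, at -5.14, -4.32, -4.69 and -4.72 (-4.72 ± 0.33) and 2.09 to 2.60 times local background. A second Rsad2 probe was above background on no array, so the call for this gene rests on 1 of its 2 probes. Ifit1, Ifih1 and Ifnb1 each had only 1 probe, so their lack of a call rests on that probe.

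The Mx genes encode dynamin-like GTPases that block viral replication, and one of them had the smallest p for spread among the members. Mx2 was at 3.01, 2.52, 2.47 and 2.08 (2.52 ± 0.38), highest in replicate 1 and lowest in replicate 4, a 1.90-fold span. Its SD was 2.46 times the prior SD for genes of like level (limma, unadjusted p 0.0149 and adjusted p 0.551 over 8376 genes). The array of replicate 4 had the lowest 75th percentile, and the part of that in this spread was not tested. Without replicate 1 the unadjusted p was 0.153 and without replicate 4 it was 0.0411 in limma's test. With normexp background correction Mx2 passed (limma, adjusted p 0.0299) with a 2.42-fold span, and its adjusted p was 0.255 to 0.98 with the other scalings, outlier spots kept, the looser filter on arrays, probes averaged or 1 array left out. Mx1 was steadier, at -2.52, -2.36, -2.32 and -2.60 (-2.45 ± 0.13). Mx1 and Mx2, the Ifit genes and the Oas genes are families of related sequence, and signal shared between relatives was not tested.

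The remaining effectors were above background on all 4 arrays with spans under 1.5-fold. Bst2, which encodes the virion-tethering protein tetherin, was at 3.25, 2.99, 2.92 and 3.16 (3.08 ± 0.15), and its 2 repeat spots had an SD of at most 0.04 on any array. Samhd1, a nucleotide hydrolase that limits retroviruses in macrophages, was at -2.23, -2.66, -2.25 and -2.73 (-2.47 ± 0.27). Gbp2, an interferon gamma-induced GTPase, was at 0.62, 0.76, 0.81 and 0.64 (0.71 ± 0.09). For Samhd1 the arrays fell into pairs, with replicates 1 and 3 above 2 and 4, whereas Gbp2 differed 1.14-fold at most. Ifi27 was at 2.36, 2.71, 2.40 and 2.81 (2.57 ± 0.23), and Ifi44 at -0.72, -0.54, -0.62 and -0.58 (-0.62 ± 0.08).

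The ISG15 system attaches a ubiquitin-like protein to targets and removes it. Isg15, the modifier itself, was at -0.76, -0.47, -0.75 and -0.40 (-0.60 ± 0.19). Usp18, the protease that removes ISG15 and restrains type I receptor signalling, was at -2.25, -2.39, -3.20 and -2.03 (-2.47 ± 0.51), with replicate 3 below the others. This 2.26-fold span was the widest among the 29 members, 2.24 times the prior SD, with limma giving an unadjusted p of 0.0255 and, adjusted, 0.686 (0.602 to 0.989 over normexp and those same settings). Without replicate 3 the unadjusted p was 0.531 in limma's test, so the spread of Usp18 rests on that array. Trim25, a ligase that promotes RIG-I signalling, was at 1.37, 1.44, 1.60 and 1.79 (1.55 ± 0.19). All 3 genes were highest in replicate 4, as were 36.3% of all genes above background, and with normexp background correction 2 of the 3 were. Parp14, an ADP-ribosyltransferase of macrophages, was at 0.41, 0.34, 0.84 and 0.84 (0.61 ± 0.27), higher on replicates 3 and 4 than on 1 and 2.

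**Figure D3:**
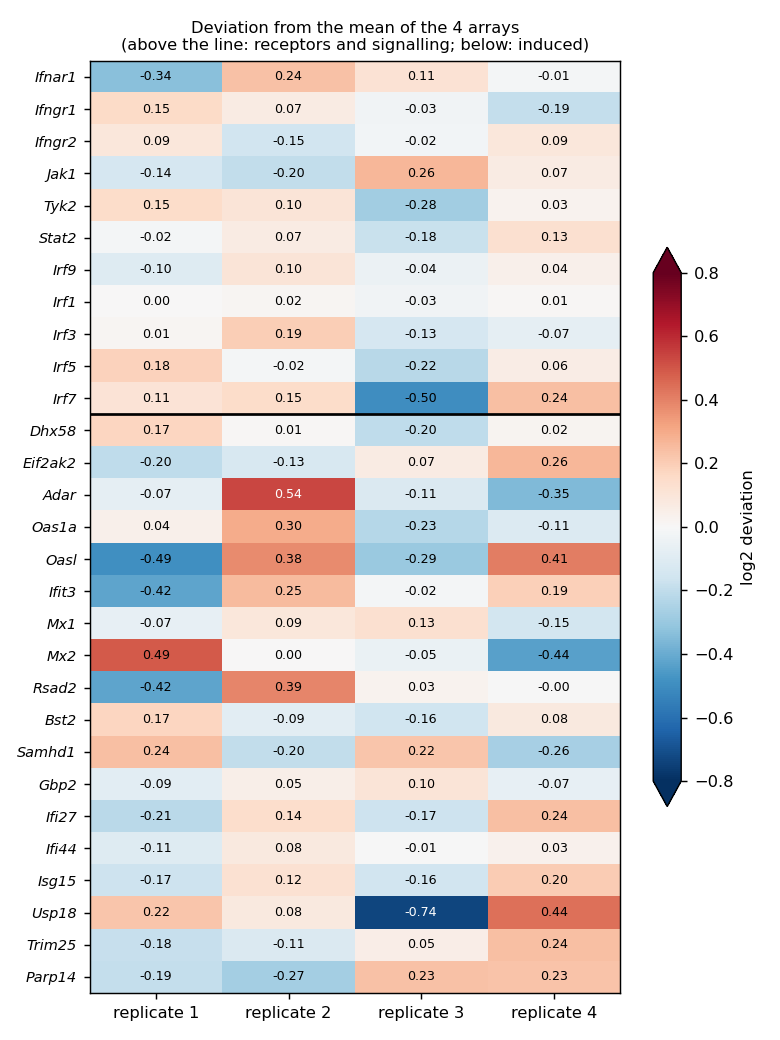
Deviation of each gene's log2 level from its own mean over the 4 arrays (columns) for the 29 genes above background on all 4, with receptors and signalling genes above the black line and induced genes below it; red is above and blue below the gene's mean. The largest departures are Usp18 on replicate 3 (-0.74), Adar on replicate 2 (0.54) and Irf7 on replicate 3 (-0.50), and the Irf1 row is close to 0 on every array.

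The median spread between cultures was larger among induced genes than among receptors and signalling genes, and no member passed the test. The median SD over arrays was 0.15 for the 11 signalling genes and 0.23 for the 18 induced genes, beside 0.18 for all 8376 genes above background. The signalling median SD, not adjusted for level, was the lower one under every setting tried. Relative to the prior SD for genes of like level, which takes level into account, the medians were 0.97, 1.13 and 0.92. These ratios were computed in the main setting only, and the signalling one was not below that of all genes. An SD above the prior was seen in 4 of 11 signalling genes and 12 of 18 induced genes, beside 43.6% of all genes. No test was made of this difference between classes.

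Excess spread was tested by setting each gene's variance over the 4 arrays against a prior variance fitted as a trend on level, in an upper-tail F test with limma and Benjamini-Hochberg adjustment over 8376 genes. Of the 29 members, 0 passed at an adjusted p of 0.05, and 2 (Mx2 and Usp18) had an unadjusted p under 0.05. On simulated arrays the test called 38% of genes whose SD was 5 times the prior SD, and 92% at 10 times. The largest ratio among the members was 2.46, of Mx2, so the absence of passing members does not show that they were steady. Over all genes the test called 16 (0.191%), and 482 (5.75%) were under 0.05 before adjustment, so the members' 2 of 29 is close to the background. With normexp background correction 1 member passed, Mx2, and 157 genes in all.

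**Figure D4:**
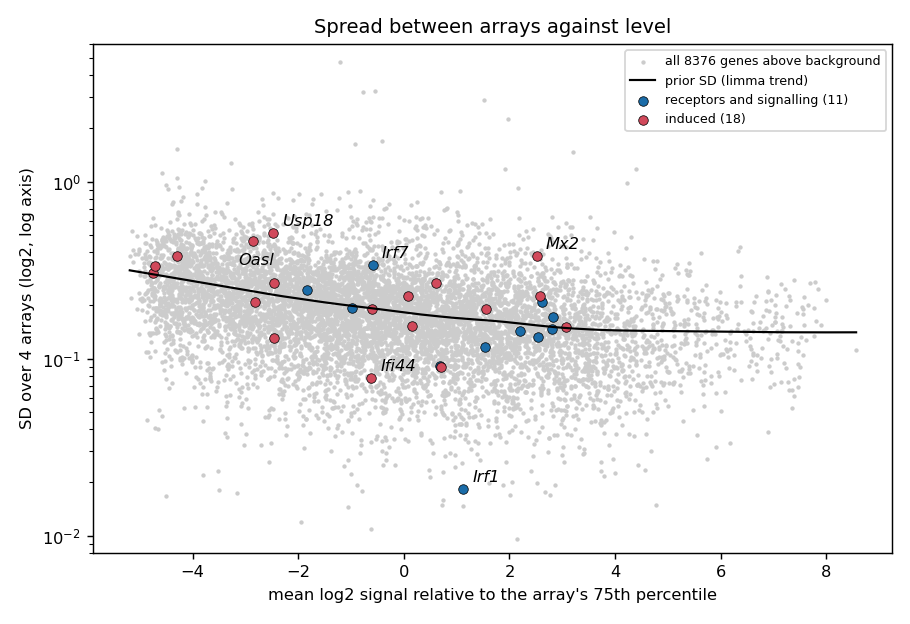
SD over the 4 arrays (y axis, log scale) against mean log2 level (x axis) for 8376 genes above background (grey), with receptors and signalling genes in blue, induced genes in red and the prior SD fitted by limma as a black line. Mx2 and Usp18 lie farthest above the line among the members, Irf1 lies far below it, and all members lie within the grey cloud.

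Averaged over each class, the deviations from the genes' means were small beside those of Usp18 or Irf7. For the 11 signalling genes the mean deviation in replicates 1 to 4 was 0.01, 0.05, -0.10 and 0.04, spanning 0.15. That of the 18 induced genes was -0.07, 0.09, -0.07 and 0.05, a range of 0.16, beside a range of 0.08 over all genes. A mean over so few genes varies more than a mean over all genes, so these ranges are not like for like. Of the signalling genes 6 of 11 were lowest in replicate 3, beside 34.4% of all genes. Without replicate 3 the range of their mean was 0.04, a fall that had to follow because that array held their lowest mean. Of the induced genes 9 of 18 were lowest in replicate 1, beside 29.9% of all genes. Those counts were 4 and 6 after quantile normalization. In replicate 2, 4 of 11 signalling and 5 of 18 induced genes were highest, beside 23.6% of all genes.

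Genes with a second probe gave a check of these small deviations, while the levels printed for them are those of the probe used and differ for the other. Of the 9 members with 2 probes, 7 had both above background on all 4 arrays. The probes agreed on the lowest array in 4 of the 7 and on the highest array in 5. Agreement over all genes with 2 probes was not computed, so these counts have no background beside them. Some agreement arises from the arrays alone, as 34.4% of all genes were lowest in replicate 3 and 36.3% highest in replicate 4. For Oas1a the second probe was at -0.51, -0.28, -0.75 and -0.68, and the deviations of its probes differed by at most 0.04 on any array. For Irf3 that gap was 0.08. For Jak1 it was 0.25, although both probes were lowest in replicate 2 and highest in replicate 3. In Trim25, the second probe was at -1.94, -1.79, -1.86 and -1.86 and did not share the high value of replicate 4. The gap was 0.24 there, 0.27 in Tyk2, 0.21 in Ifi44 and 0.20 in Irf9, as large as the deviations themselves.

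**Figure D5:**
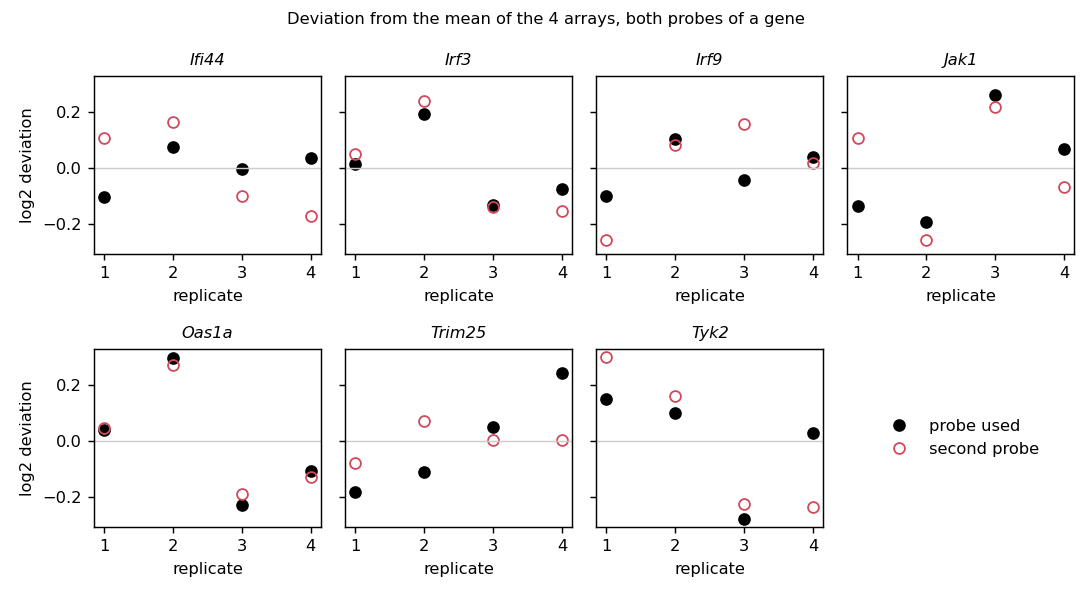
Log2 deviation from the mean of the 4 arrays (y axis) by replicate (x axis) for the 7 genes with 2 probes above background on all arrays; filled points are the probe used and open points the second probe. The points nearly coincide for Oas1a and Irf3 and part for Ifi44, Trim25 and, on replicate 4, Tyk2.

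Other genes of the pathway were taken from a list of 78, of which 60 had a probe, and here the signalling genes were not all detected. Above background on all 4 arrays were 71.4% of upstream sensors, adaptors and kinases and 63.6% of other receptors and regulators. For other interferon-induced genes the share was 83.8%. Of the 60, 44 (73.3%) were above background on all 4 arrays, beside 50.5% of all named genes, 6 on some and 10 on none. Interferon genes were mostly not above background: of 5 measured, the IFN-alpha gene Ifna4 was on all 4, at -4.61, -4.61, -4.75 and -4.29, and Ifna2, Ifna5, Ifnk and Ifng were on none. The Ifna4 spot was 2.36 to 2.72 times its local background, close to the limit of the calls. Signal shared with other IFN-alpha genes was not tested. Among sensors, adaptors and kinases upstream of Ifnb1, 5 of 7 were above background, namely the DNA-sensing adaptor Sting1, the RNA-sensing adaptor Mavs, the kinases Tbk1 and Ikbke, and the DNA exonuclease Trex1. Tlr3 was above background on 2 arrays and Tlr7 on 3. Tlr7 missed the flag on replicate 4, where its level was -4.95 against -4.98, -5.19 and -5.06 on replicates 1 to 3.

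Among other receptors and regulators, 7 of 11 were above background on every array, such as the kinase Jak2, the receptor chain Il10rb, and the factors Irf2 and Irf4. The macrophage factor Irf8 was above background on replicates 2 and 3, at -5.32 and -5.34, and the interferon lambda receptor Ifnlr1 on none. The feedback inhibitor Socs1 was above background on replicate 1 alone, at -3.52 against -5.65, -6.18 and -5.27. In the remaining list of interferon-induced genes, 31 of 37 were above background on every array, including Ifitm1, Ifitm2, Ifi35 and Oas1b, whereas Ifitm3 was on none and Oas2 on 1. Windows of this list held an ISRE match in 23 of 40 cases, beside 3.92% of all windows. Those of the other interferon genes did in 4 of 9 and those of the other receptors and regulators in 1 of 9. For the upstream sensors, adaptors and kinases it was 0 of 6, too few windows to set against that share.

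Of these 44 genes, 0 passed the test of excess spread at an adjusted p of 0.05 and 1 had an unadjusted p under 0.05. That gene was Cxcl10, a chemokine that interferons induce, at 0.11, 0.29, 0.30 and 0.98 (0.42 ± 0.38), with replicate 4 above the others (unadjusted p 0.0302, adjusted p 0.744 in limma's test). Without replicate 4 its unadjusted p was 0.724 in limma's test. The related chemokines Cxcl9 and Cxcl11 were above background on no array, and Ccl5 was on all 4.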

How the data were processed

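RNA was converted to Cy3-labelled cRNA for Agilent's one-colour assay, per the labels' protocols. The deposited intensity values come from Agilent Feature Extraction 11.0.1.1 (version per the submitters' processing notes), which subtracted background and removed spatial trends in each array, per the file headers. Spots with a negative background-subtracted value still carry a small positive processed value, so levels below background have no order. The spot flags of 0 or 1 (other values) were deposited by the authors with them. Any normalization between arrays by the authors: not given in the sources used here.

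Control spots were dropped, as were outlier-marked spots of a probe that had an unmarked one. Levels are log2 processed signal less the log2 of the 75th percentile over the array's unmarked non-control spots; repeat spots of a probe were averaged. A probe counted as above background on an array when more than 0.5 of its spots carried the flag. Accessions were matched without version to the RefSeq gene table of GRCr8, used for names: 21109 of 45598 probes were named, and 24489 were not. Each gene's value is that of its probe flagged on the most arrays, or the brighter one when equal. The grid's own build is rn4, per the file headers; printed coordinates are those of the RefSeq promoter table. Slfn13 was read as Slfn9, its symbol in that table.

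The spread test used limma 3.58.1 (R 4.3.3) and a robust trended prior (9.16 prior degrees of freedom), over genes above background on all arrays, and the script was tested on simulated data. With 1 group, no comparison of conditions was possible, and p-values measure only the spread between these 4 arrays, which lie on 1 slide. All measured members are named: those above background on any array with their values in text or figure, others by name. Other pathway genes are named with values where the unadjusted p was under 0.05, and otherwise up to 6 per group in list order. Beyond this rule, Tlr7, Trex1, Irf8, Socs1, Cxcl9, Cxcl11 and Ccl5, and the values of Ifna4, were chosen after their values were seen. The members and lists were chosen with earlier results of these data known. Alternatives changed the background correction, the scaling, the flag, the outlier marks, the filter on arrays, the probe rule, the prior and the class of 4 genes, and left out each array in turn.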

Additional observations from a re-analysis of the deposited data

How the results depend on the processing

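The counts above background kept to within 1.5 times the reported ones under every alternative to the flag, outlier marks, filter on arrays, probe rule and arrays used: 27 to 33 for the 34 measured members, 11 for receptors and signalling, and 16 to 21 for induced genes. Counting Irf1, Irf7, Irf9 and Stat2 as induced leaves 7 signalling genes by construction, and the range of their mean deviation over arrays was then 0.0777. That range was 0.0753 with the percentile over probes above background and between 0.0415 and 0.147 when 1 replicate was left out, lowest without replicate 3; for induced genes it was 0.105 with normexp and 0.127 to 0.173 when 1 replicate was left out. The number of members passing the test of excess spread was 1 with normexp background correction and 0 under each other alternative, among them each omission of an array. Over all 8376 genes that test called 16, against 157 with normexp, 25 with outlier spots kept, 10 with a prior that was not robust, 5 with a constant prior and 7 to 22 when 1 replicate was left out (7 without replicate 2). The mean level stayed within 1 SD for 17 of 29 members with outlier spots kept and for 18 with normexp. It did so for 0 with the percentile over probes above background, which sets another zero point for all genes. Keeping outlier spots also shifted nearly all members alike, as from -1.83 to -2.01 for Ifnar1 and from 3.08 to 2.90 for Bst2. That too is a change of zero point, and the members counted outside 1 SD were those with a small SD. Quantile normalization kept all 29 within 1 SD and cyclic loess 28. Averaging a gene's probes kept 22; the levels of the 7 genes with both probes above background on all arrays depend on the probe rule, and became 0.75 for Jak1, -1.55 for Tyk2, -0.85 for Irf9, 0.88 for Irf3, -0.24 for Oas1a, -1.14 for Ifi44 and -0.16 for Trim25. No paired analysis was possible because all samples belong to 1 group. Signal over background limits Ifit3, Rsad2 and Adar, whose spots were at most 3.23 times local background.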

Other observations

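Across all named genes on the array with a promoter window, an ISRE match went with no higher share of detected genes. Of 482 genes with a match, 47.7% were above background on all 4 arrays, and of 13073 without one, 51.8% were. Ly6d, taken as a marker of plasmacytoid dendritic cells, was above background on replicate 4 alone, at -3.72 against -7.78, -7.64 and -7.90.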
